A study of Mus musculus with 16 samples.

Results

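The genes described here are the replication-dependent histone genes of mouse embryonic stem cells, which encode the linker histone H1 and the core histones H2A, H2B, H3 and H4. They were taken by name: protein-coding genes whose older mouse symbol starts with Hist1h, Hist2h, Hist3h or Hist4h, with at least 10 counts in at least 4 libraries. Of 52636 gene identifiers in the count table, 67 were protein-coding genes with such a symbol, and 53 of those passed the count minimum. They comprised 6 H1, 12 H2A, 14 H2B, 9 H3 and 12 H4 genes. The Hist1 cluster on chromosome 13 (21715763 to 23934851, mm10) held 49 of them, the Hist2 cluster on chromosome 3 held 3, and Hist4h4 lay alone on chromosome 6.

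The assay was RNA-seq of total RNA after removal of ribosomal RNA, in the mouse embryonic stem cell line CRAFR26, which carries a c-RAF kinase construct that 4-hydroxytamoxifen (4OHT) switches on to induce ERK signalling. All 16 libraries came from cells kept for 48 h in 250 nM of the FGF receptor inhibitor PD17 (PD173074). It replaced the MEK inhibitor PD03 of their usual 2i/LIF medium. The groups were cells with no 4OHT (0h), cells given 250 nM 4OHT for 2 h (2h) or 4 h (4h), and cells given 4OHT for 4 h and then a MEK inhibitor for a further 2 h (rev). Each group held 4 libraries, 2 from clone 4 and 2 from clone 8, so that only 2 clones of the line were measured. No culture received only the vehicle of 4OHT, and none was induced for 6 h without the MEK inhibitor, so neither effect can be told apart from the treatments. The dose of the MEK inhibitor in the rev group is not given in the labels, which also do not say whether replicates of a clone were separate cultures. The p-values therefore measure the spread between these libraries, which may be technical in part.

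Replication-dependent histone genes are transcribed in S phase, when newly made DNA has to be packed into nucleosomes. Their messenger RNAs are not polyadenylated: they end just after a short stem-loop that the protein Slbp binds, and a U7 small nuclear RNA complex directs the cut. Npat carries the cell cycle signal to their promoters. Rapidly cycling embryonic stem cells spend much of their time in S phase. In bulk RNA, a smaller share of cells in S phase cannot be told apart from less histone RNA per cell.

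The stem-loop was searched in the annotated transcripts (GENCODE M21, mm10) as a stem of 6 base pairs around a loop of 4 bases. It was found in 37 of the 53 genes (69.8%), against 64 of 21884 other protein-coding genes (0.292%). The annotated lengths of the histone genes without a match were 312 to 743 bases, apart from Hist1h2bc (1156) and Hist2h2be (2620). The genes that the results below turn on are shown here with 5 bases on either side of the stem-loop, which is in capitals. The letters differ between H4 and the other classes, and also within each class.
Hist1h1c: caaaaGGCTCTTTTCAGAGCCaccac
Hist1h2ae: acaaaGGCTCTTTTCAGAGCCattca
Hist1h2bg: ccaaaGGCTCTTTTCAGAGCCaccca
Hist1h3g: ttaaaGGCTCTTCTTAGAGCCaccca
Hist1h3c: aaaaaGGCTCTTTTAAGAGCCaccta
Hist1h4d: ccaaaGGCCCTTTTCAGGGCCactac
Hist1h4i: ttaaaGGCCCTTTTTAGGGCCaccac
Hist1h4b: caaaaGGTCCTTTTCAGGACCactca
The form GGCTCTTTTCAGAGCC was the most frequent, in 18 of the 37 genes and in all classes other than H4. The form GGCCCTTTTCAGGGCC was found in 6 genes, all of them H4, and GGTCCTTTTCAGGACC in 2 genes, Hist1h4b and Hist1h4j. Hist1h3g had a form of its own among these genes.

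RefSeq promoters (GRCm38.p6) were matched to 47 of the 53 genes, by a start within 300 bases on the same strand. The 250 bases before the start were searched on both strands for 4 motifs: the TATA box TATAAA, the CCAAT box CCAAT, the octamer ATTTGCAT and the H1 box AAACACA, none of which contains another. CCAAT was present in 39 of 47 (83.0%) against 33.8% of all 32851 starts in the table, and TATAAA in 25 of 47 (53.2%) against 12.4%. The octamer was found in 6 of 12 H2A and 5 of 12 H2B promoters and in none of the other classes, against 1.60% of all starts. The H1 box was found in 4 of 5 H1, 2 of 12 H2A and 2 of 12 H2B promoters and in none of H3 or H4, against 6.25% of all starts. By class, CCAAT was in all 36 H1, H2A, H2B and H3 promoters but in 3 of 11 H4 promoters. The 200 bases before the start are shown for 4 genes that differed in their behaviour, with matches in capitals. Hist1h1c (H1f2, chr13:23738607-23738806, plus strand) holds an H1 box and a CCAAT box.
Hist1h1c: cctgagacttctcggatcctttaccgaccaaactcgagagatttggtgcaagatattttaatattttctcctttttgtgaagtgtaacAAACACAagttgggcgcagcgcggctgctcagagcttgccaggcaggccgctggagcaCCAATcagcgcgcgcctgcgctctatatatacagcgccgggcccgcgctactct
Hist1h4b (H4c2, chr13:23756737-23756936, plus strand) holds none of the 4 motifs in this stretch. Its RefSeq start lies at -76 bases relative to the annotated gene start, and the bases between them were not searched. That offset was -30 for Hist1h4d, -47 for Hist1h2bn and -1 for Hist1h1c.
Hist1h4b: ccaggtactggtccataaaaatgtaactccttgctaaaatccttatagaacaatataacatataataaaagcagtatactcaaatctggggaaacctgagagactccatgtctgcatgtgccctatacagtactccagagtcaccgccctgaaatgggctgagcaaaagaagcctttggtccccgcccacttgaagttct
Hist1h4d (H4c4, chr13:23581368-23581567, plus strand) holds a CCAAT box on the minus strand, 40 bases before the start, and a TATA box 32 bases before it.
Hist1h4d: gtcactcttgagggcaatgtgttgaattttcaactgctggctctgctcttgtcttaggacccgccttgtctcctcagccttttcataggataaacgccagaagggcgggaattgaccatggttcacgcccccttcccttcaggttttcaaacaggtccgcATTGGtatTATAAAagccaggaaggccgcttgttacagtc
Hist1h2bn (H2bc15, chr13:21753876-21754075, plus strand) is read away from its neighbour Hist1h2ak, and the stretch between them holds 3 CCAAT boxes and a TATA box on the minus strand.
Hist1h2bn: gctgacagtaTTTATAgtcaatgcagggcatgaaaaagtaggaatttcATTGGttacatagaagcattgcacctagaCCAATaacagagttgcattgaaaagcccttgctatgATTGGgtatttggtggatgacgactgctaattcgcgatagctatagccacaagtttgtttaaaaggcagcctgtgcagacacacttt

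Library totals ranged from 2172651 to 12680303 counts. The histone genes took 4171 to 26186 of those counts, or 0.101% to 0.263%. The 8 most abundant gene models took 42.0% to 80.4%, most in the library rev clone8_2, so scaling factors ranged from 0.463 to 1.47. Values are given as CPM, counts relative to the library total in its usual scaling, after trimmed mean of M-values normalization, and 3 counts, taken as the floor, equal 0.213 to 1.352 CPM. All 8 ERK target genes fixed as a check of the labels were higher at 2h and at 4h and lower in rev than at 4h: their summed level was 99.1 to 128 CPM in the 0h group, 741 to 1020 in 2h, 699.5 to 957 in 4h, and 108 to 121 after MEK inhibition. The 12 embryonic stem cell markers were all measured and summed to 1874 to 2637 CPM, against 3.26 to 7.21 CPM for 6 primitive endoderm markers and 4.21 to 13.0 CPM for 8 fibroblast and feeder markers, of which Dcn and Postn were at 0 in all libraries. The fibroblast and feeder sum was 11.1 ± 2.14 CPM at 0h and 6.21 ± 1.81 at 4h, with 1 of 3 tested genes called lower, Pdgfrb (-1.88 ± 0.20). The 7 neural and mesoderm markers summed to 9.41 ± 1.67 CPM at 0h and 24.3 ± 4.23 at 4h, with T, Eomes and Pax6 called higher. Of the 12 embryonic stem cell markers, 7 were called higher and 4 lower at 4h against 0h, with log2 fold changes of -1.09 to 2.01. Of all genes tested, 17.2% were higher and 16.8% lower. The part of these marker lists in the histone results was not tested. Replicate libraries of a clone and group differed by more than sampling noise in every case.

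Histone RNA as a whole moved little. The 53 genes summed to 1947 ± 305 CPM without 4OHT (mean ± SD, n = 4), to 1860 ± 109.8 and 1725 ± 268 after 2h and 4h of it, and to 1879 ± 237 after the MEK inhibitor. By library, the sums were 1810 and 1729 in clone 4 and 2398 and 1850 in clone 8 at 0h. At 4h they were 1709 and 1356 in clone 4 and 1879 and 1958 in clone 8. The mean at 4h was 11.4% below that at 0h, and the groups overlapped. One library at each time stood apart, 0h clone8_1 as the highest and 4h clone4_2 as the lowest, and each held that place in its group in all 5 classes. The mean difference between 4h and 0h was a ratio of 0.866 within clone 4 and 0.903 within clone 8. In clone 8 both 4h sums lay above that of 0h clone8_2, so the lower mean there rested on 0h clone8_1. In clone 4 both 4h sums lay below both 0h sums, 4h clone4_1 only slightly.

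**Figure D1:**
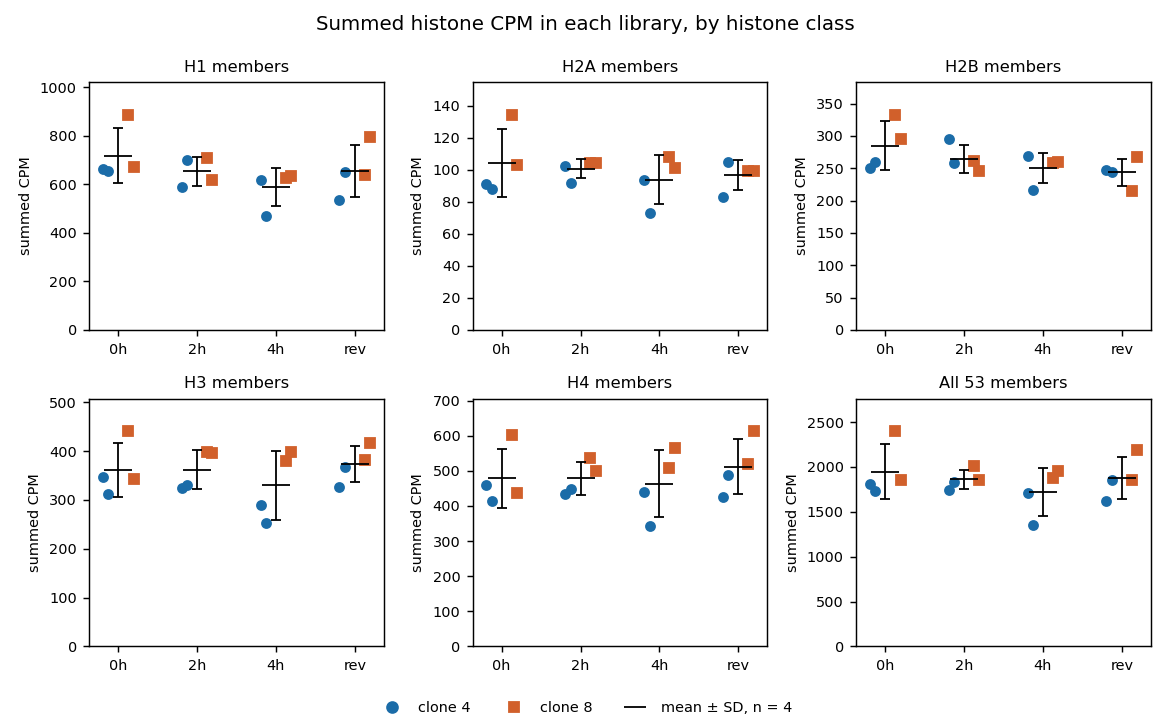
Summed CPM (y axis, from 0) of the histone genes of each class in each library, by group (x axis); circles are clone 4, squares are clone 8, and the black bar is the mean with its SD (n = 4). The 0h library clone8_1 is the highest point at 0h and 4h clone4_2 the lowest at 4h in every panel, and 0h and 4h overlap in every class but H1.

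By class, H1 genes contributed 35.0% of all histone counts, H4 26.0%, H3 19.4%, H2B 14.3% and H2A 5.41%. The H1 sum had the largest difference of means, with 718 ± 113 CPM in the 0h libraries, 653 ± 59.5 in the 2h, 588 ± 78.1 in the 4h and 654 ± 108 in the rev libraries. H2B sums were 285 ± 37.7 at 0h, 250.5 ± 23.2 at 4h and 243.5 ± 21.3 in rev. H2A sums were 104 ± 21.2 at 0h and 94.0 ± 15.3 at 4h. The H3 sum was 361 ± 55.4 at 0h, 330 ± 70.1 at 4h and 373 ± 36.9 in rev, and the H4 sum was 479 ± 84.8, 463 ± 95.7 and 512 ± 78.5 in those groups. The ranges of every class overlapped between 0h and 4h apart from H1, where the 0h libraries lay at 653 to 887 CPM and the 4h libraries at 471 to 634. The H1 difference was smaller without 1 library of each group: 653 to 671 CPM at 0h without clone8_1, and 619 to 634 at 4h without clone4_2.

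Levels of single genes differed widely when given per kilobase of annotated exon. The highest were Hist1h1a at 272 CPM per kilobase, Hist1h1b at 159, Hist1h4d at 153, Hist1h3e at 125 and Hist1h4k at 118, and the highest H2A genes were Hist1h2ak at 64.0 and Hist1h2ab at 30.7. The 5 lowest were Hist2h2be at 0.767, Hist1h1t, the testis linker histone, at 1.43, Hist1h2bh at 2.32, Hist1h2be at 2.94, and Hist1h2ba, the testis H2B, at 3.26 CPM per kilobase. Annotated lengths run far past the stem-loop for some genes (4884 bases for Hist1h1d, 2445 for Hist4h4, 1861 for Hist1h2be and 1214 for Hist1h2bh), which lowers their level per kilobase. By CPM, Hist1h2aa (1.44) and Hist1h2an (1.75) lay below Hist1h2bh (3.90) and Hist1h2be (13.1). Of the 14 genes that failed the count minimum, 9 had 0 counts in all libraries, among them Hist2h2aa1, Hist2h2aa2 and Hist2h3b, and between 88.7% and 100% of the 50-base words in their transcripts also occur in other genes. Among the 53 genes this shared part had a median of 45.8% (0% to 94.0%). How reads with several positions were counted is not given in the sources used here, so values of single genes with a large shared part are uncertain.

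Of the 53 genes, 52 passed the low-count filter and were tested among 12215 genes with edgeR's quasi-likelihood test, with clone as a covariate and Benjamini-Hochberg adjustment over all tested genes. Calls are at an adjusted p under 0.05. No histone gene changed by 2-fold or more in any comparison of groups, and the largest absolute log2 fold change was 0.81.

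After 2 h of induction, 3 histone genes were lower and none was higher. The 3 were the linker histone genes Hist1h1d (log2 fold change -0.34 ± 0.11 SE, adjusted p = 0.0197) and Hist1h1c (-0.26 ± 0.09, adjusted p = 0.0392) and the H4 gene Hist1h4b (-0.67 ± 0.20, adjusted p = 0.016). Across all genes tested, 11.4% were called higher and 9.68% lower, so the histone share called lower, 5.77%, was not above that background. An unadjusted p under 0.05 was found for 2 histone genes above and 7 below 0, and DESeq2 called 0 in either direction. The median of the 52 was -0.09 against -0.02 for all genes, with 38 of 52 below 0. The clones differed in this count: in clone 4, 18 of 52 values were below 0 (median 0.04), and in clone 8, 40 of 52 (median -0.18). Without the library 0h clone8_1 or 2h clone8_2 the count lower was 0, without 0h clone4_1 it was 7 (and 1 was higher), and without 2h clone4_1 it was 6.

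After 4 h of induction, 10 of 52 histone genes were lower than at 0h (19.2%) and none was higher. They came from all 5 classes: Hist1h1c and Hist1h1b (H1), Hist1h2af and Hist1h2ah (H2A), Hist1h2bn, Hist1h2bg and Hist1h2bb (H2B), Hist1h3c (H3), and Hist1h4b and Hist1h4i (H4). Of all genes tested, 16.8% were lower and 17.2% higher, so the share called lower was near the background and the share called higher, 0 of 52, was under it. None had an unadjusted p under 0.05 above 0, 17 had one below 0, and DESeq2 called 0 higher and 5 lower. The median was -0.17 against -0.02 for all genes, and 44 of 52 values were below 0, with 42 of 52 in clone 4 and 41 of 52 in clone 8 (median -0.17 in each). These sign counts and medians were not repeated without single libraries. In clone 8, the histone sums at 4h (1879 and 1958 CPM) lay above that of 0h clone8_2 (1850) and below that of 0h clone8_1 (2398). In clone 4, 4h clone4_1 (1709) was near the 0h sums (1810 and 1729), while 4h clone4_2 was at 1356. The count of 10 moved most with 2 libraries: without 0h clone8_1 it was 4, and without 4h clone4_2 it was also 4. Scaled by library size alone, 0 were called, and the median of all genes itself moved to 0.09, with the histone median at -0.08.

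**Figure D2:**
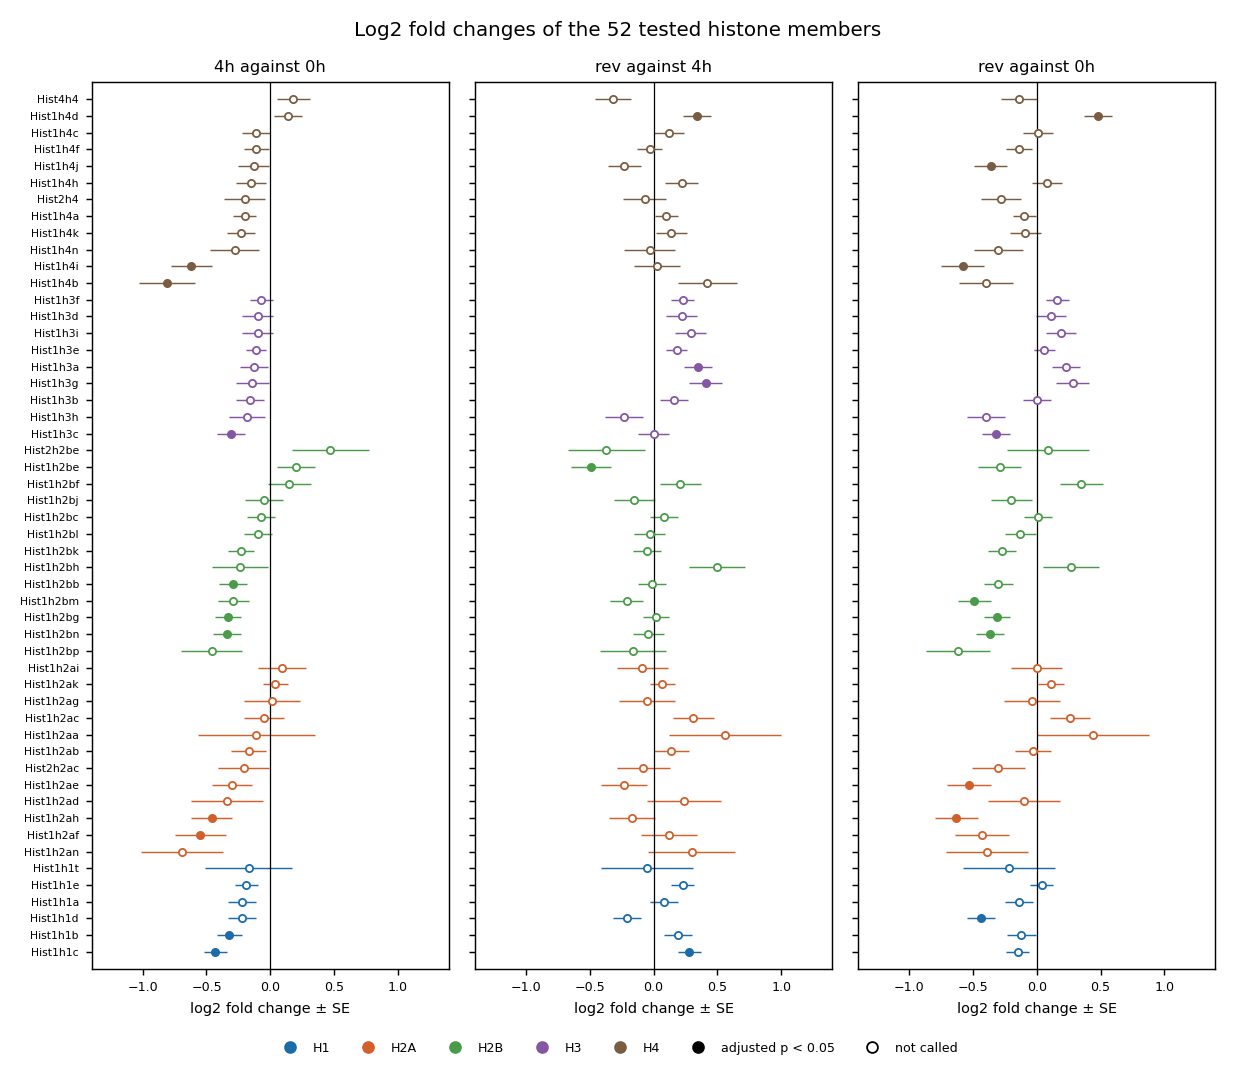
Log2 fold change with its standard error (x axis) of the 52 tested histone genes (y axis, grouped by class and ordered within each by the 4h against 0h value) in 3 comparisons; filled points have an adjusted p under 0.05. Most points at 4h against 0h lie left of 0 with 10 filled, and 5 are filled for rev against 4h.

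All 6 linker histone values were below 0 at 4h (median -0.22, from -0.43 to -0.17), as were all 9 H3 values (median -0.13, from -0.31 to -0.07). Within clones, 9 of 9 H3 values were below 0 in clone 4 (median -0.21) and 5 of 9 in clone 8 (median -0.02), where Hist1h3g was at 0.28. Hist1h1c encodes histone H1.2, and its gene lies at chromosome 13, 23738808 to 23740367. Its level was 148 and 147 CPM in clone 4 and 235 and 187 in clone 8 at 0h. After 2 h it was 144 and 143 in clone 4 and 166 and 144 in clone 8. After 4 h it was 137 and 102.5 in clone 4 and 146 and 142 in clone 8, so that every 4h library lay below every 0h library. It fell by 4h (log2 fold change -0.43 ± 0.09, adjusted p = 0.000411), and no library left out removed that call. In rev it was 133 and 145.5 in clone 4 and 168 and 203 in clone 8, and it was higher than at 4h (0.28 ± 0.09, adjusted p = 0.0354), with overlapping groups. That rise was lost without any of 4h clone4_2, 4h clone8_1, 4h clone8_2, rev clone4_2 or rev clone8_2 (0.21 to 0.27). The fall at 2h was lost without 0h clone8_1 (-0.16), 2h clone8_1 (-0.26) or 2h clone8_2 (-0.18).

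Hist1h1b, which encodes histone H1.5, fell by 4h (-0.32 ± 0.10, adjusted p = 0.0178). Its 0h libraries held 111, 125, 159 and 118 CPM and its 4h libraries 114, 76.2, 111 and 111, so the groups overlapped, and the call was lost without 0h clone4_2 (-0.29), 0h clone8_1 (-0.22) or 4h clone4_2 (-0.21). Hist1h1d (H1.3) was at 91.0, 95.9, 124 and 81.1 CPM at 0h and at 74.3, 86.7, 82.2 and 70.3 CPM at 2h. Its call at 2h was lost without 0h clone4_2 (-0.33), 0h clone8_1 (-0.21) or 2h clone8_2 (-0.27), and at 4h its value was -0.22 ± 0.11 (adjusted p = 0.102). In rev, Hist1h1d was lower than at 0h (-0.44 ± 0.11, adjusted p = 0.004), and no library left out removed that call. Hist1h1a (H1.1), the most abundant per kilobase, did not pass the test at 4h (-0.22 ± 0.11, adjusted p = 0.124), nor did Hist1h1e (H1.4) (-0.19 ± 0.09, adjusted p = 0.0954).

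Among the core histone genes called lower at 4h, the H4 genes Hist1h4b and Hist1h4i had the largest falls; the H2A gene Hist1h2an was at -0.69 ± 0.32 without a call (adjusted p = 0.0933). Hist1h4b lies at chromosome 13, 23757013 to 23757409, and 75.9% of its 50-base words occur elsewhere. It was counted 8 to 62 times per library. Its 0h libraries held 6.25, 7.01, 7.40 and 6.09 CPM and its 4h libraries 4.40, 2.34, 5.51 and 3.42, so all 4h values lay below all 0h values. Between 0h and 4h it fell by 0.81 ± 0.22 on the log2 scale (adjusted p = 0.00403), a call that held without any single library, while the fall at 2h was lost without 0h clone8_1 (-0.60), 2h clone4_1 (-0.61) or 2h clone8_2 (-0.60). Rev libraries held 6.61, 4.78, 3.98 and 3.61 CPM, the first within the 0h range and the other 3 within the 4h range, with no call against either group. Hist1h4i fell by 0.62 ± 0.16 at 4h (adjusted p = 0.00345) and was still lower in rev than at 0h (-0.58 ± 0.17, adjusted p = 0.0116). It held 11.4, 9.85, 15.1 and 14.2 CPM at 0h and 9.90, 7.94, 7.03 and 7.63 at 4h, so that 1 library of each group overlapped. The 4h call held without any library, and the rev call was lost without rev clone8_1 (-0.54).

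In H2A, 2 of 12 tested genes were called lower at 4h (median -0.19), and in H2B 3 of 13 (median -0.23). The H2B gene Hist1h2bn, in the order clone4_1, clone4_2, clone8_1 and clone8_2, held 29.3, 27.5, 30.6 and 28.3 CPM at 0h, and no 4h library held more than 25.0, so the groups did not overlap. It fell by 0.34 ± 0.11 (adjusted p = 0.0164), a call lost without 0h clone8_1 (-0.29) or 4h clone4_2 (-0.29). The H2B gene Hist1h2bg likewise did not overlap, with 35.9, 35.7, 48.9 and 42.9 CPM at 0h against 34.5, 31.8, 34.0 and 29.5 at 4h (-0.33 ± 0.10, adjusted p = 0.00829), and its call was lost without 0h clone8_1 (-0.24) and with scaling by library size alone (-0.24). Within clones, Hist1h2bg was at -0.11 in clone 4 and -0.51 in clone 8. For the H2A gene Hist1h2ah, the 0h values of 9.23, 7.76, 11.9 and 8.87 CPM lay above the 4h values of 7.04, 5.49, 7.22 and 7.37. It fell by 0.46 ± 0.16 (adjusted p = 0.0257), a call lost without 0h clone8_1 (-0.36), 4h clone4_2 (-0.38) or 4h clone8_1 (-0.46). Hist1h2af (-0.55 ± 0.20), Hist1h2bb (-0.29 ± 0.11) and the H3 gene Hist1h3c (-0.31 ± 0.11) were called at 4h, with adjusted p of 0.0348, 0.0354 and 0.0287, and each of these calls was lost without 3 or 4 of the single libraries. In total 5 of the 52 tested histone genes had all 4h libraries below all 0h libraries (Hist1h1c, Hist1h2ah, Hist1h2bn, Hist1h2bg and Hist1h4b), against 10.8% of all tested genes.

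Many H2A and H2B genes lie as neighbours read away from each other, and 10 such pairs were found among these genes, with 175 to 305 bases between the annotated genes. In 9 pairs both partners were tested, and in 4 of those both values at 4h against 0h were below 0. Partners did not always share a call: Hist1h2bn was lower at 4h while Hist1h2ak was at 0.04, and Hist1h2ah was lower while Hist1h2bk was at -0.23. The difference between partners was not tested. The pair Hist2h2ac and Hist2h2be on chromosome 3 was at -0.21 and 0.47, without a call for either.

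From 2h to 4h, no histone gene was called by edgeR in either direction, against 3.80% of all genes higher and 3.52% lower. Only Hist1h1b had an unadjusted p under 0.05 (0.0333, log2 fold change -0.23), and DESeq2 also called 0. The median was -0.11 against -0.00 for all genes, with 40 of 52 below 0. Within clones, 45 of 52 were below 0 in clone 4 (median -0.25) and 27 of 52 in clone 8 (median -0.02).

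After 2 h of MEK inhibition, 4 histone genes stood higher than they had at 4h, while 1 was lower. The higher ones were the H3 genes Hist1h3g and Hist1h3a, the H4 gene Hist1h4d and the linker gene Hist1h1c, and the lower one was the H2B gene Hist1h2be. These were 7.69% and 1.92% of the 52, against 7.93% of all genes higher and 8.43% lower. The median was 0.08 against 0.01 for all genes, with 0.10 in clone 4 (32 of 52 above 0) and -0.05 in clone 8 (20 of 52). The calls rested on few libraries: the count higher was 0 without 4h clone4_2, rev clone4_2 or rev clone8_2 and 1 without 4h clone4_1, and the count lower was 0 without 4h clone4_1, 4h clone8_1, rev clone4_2 or rev clone8_1 and 2 without 0h clone8_2, 4h clone4_2 or rev clone8_2. The 8 most abundant models took 54.1 ± 9.31% of counts at 4h and 65.9 ± 10.6% in rev. With that percentage as a covariate 0 histone genes were called in either direction, while their median was 0.10. Among all genes, 577 were then called higher and 652 lower, against 969 and 1030 without the covariate. DESeq2 also called 0 histone genes. With scaling by library size alone, the median of all genes was -0.41 and that of the histone genes -0.36, with 0 called higher and 3 lower, and the 4 genes then had values below 0 (-0.01 to -0.18).

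Hist1h4d was the H4 gene with the highest level, at chromosome 13, 23581598 to 23582735, with 10.2% of its words shared. Its 0h libraries held 159 and 126 CPM in clone 4 and 171 and 127 in clone 8. At 4h it was 122 and 122 in clone 4 and 199 and 215.5 in clone 8, and in rev 152 and 201 in clone 4 and 203 and 271 in clone 8. The groups overlapped, and both rev libraries lay above both 4h libraries in clone 4 but not in clone 8. It was higher in rev than at 4h (0.34 ± 0.11, adjusted p = 0.0337) and than at 0h (0.48 ± 0.11, adjusted p = 0.00232). The first call was lost without 4h clone4_1, 4h clone4_2, rev clone4_2 or rev clone8_2 (0.26 to 0.27), and the second held without any single library. At 2h and 4h it was not called against 0h (0.27 ± 0.11 and 0.14 ± 0.11, adjusted p = 0.0902 and 0.357).

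Hist1h3g held 22.7 and 21.7 CPM in clone 4 and 46.5 and 45.0 in clone 8 at 4h. In rev it held 28.5 and 41.3 CPM in clone 4 and 49.6 and 60.4 in clone 8, so that each clone's rev libraries lay above its own 4h libraries while the groups overlapped. It was higher in rev than at 4h (0.41 ± 0.13, adjusted p = 0.0288), a call lost without 4h clone4_1, 4h clone4_2, rev clone4_2, rev clone8_1 or rev clone8_2 (0.31 to 0.44). Hist1h3a was higher by 0.35 ± 0.11 (adjusted p = 0.0192), and its call was lost without 4h clone4_1, 4h clone4_2, rev clone4_1, rev clone4_2 or rev clone8_2 (0.27 to 0.34). Its 4h libraries held 27.3, 26.4, 44.6 and 46.3 CPM and its rev libraries 39.8, 43.7, 41.6 and 55.4. In clone 4 both rev values were above both 4h values, and in clone 8 they overlapped.

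Hist1h2be was lower in rev than at 4h (-0.49 ± 0.16, adjusted p = 0.0315). Its 4h libraries held 18.7, 13.0, 16.3 and 11.6 CPM and its rev libraries 12.2, 9.99, 8.12 and 14.4, so the groups overlapped. The call was lost without 4h clone4_1 (-0.36), 4h clone8_1 (-0.43), rev clone4_2 (-0.44) or rev clone8_1 (-0.38). Its annotated transcript spans 23583670 to 23621124 on chromosome 13 in 2 exons and shares exon sequence on the same strand with Hist1h1e, so its counts may hold reads of that gene and are uncertain. Hist1h1e itself was at 0.23 ± 0.09 in rev against 4h (adjusted p = 0.0746).

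**Figure D3:**
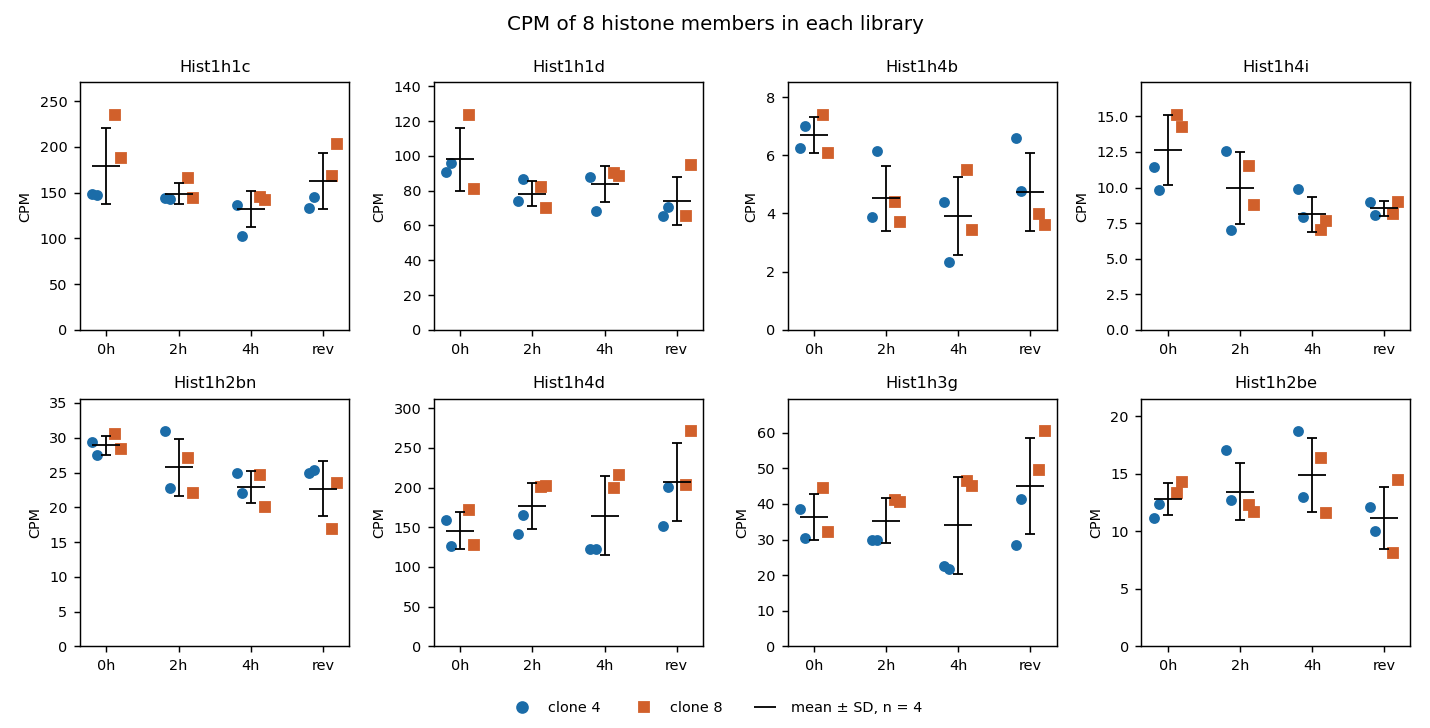
CPM (y axis, from 0) of 8 histone genes in each library by group (x axis); circles are clone 4, squares are clone 8, and the black bar is the mean with its SD (n = 4). Hist1h1c, Hist1h4b and Hist1h2bn have all 4h libraries below all 0h libraries, while Hist1h4d and Hist1h3g are lower in clone 4 than in clone 8 at 4h.

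Set against 0h, the rev libraries had 9 histone genes lower (17.3%) and 1 higher, Hist1h4d, where 9.86% of all genes were lower and 12.4% higher. Lower were Hist1h2ah (-0.63 ± 0.17), Hist1h4i (-0.58 ± 0.17), Hist1h2ae (-0.53 ± 0.17), Hist1h2bm (-0.49 ± 0.13), Hist1h1d (-0.44 ± 0.11), Hist1h2bn (-0.37 ± 0.11), Hist1h4j (-0.36 ± 0.13), Hist1h3c (-0.32 ± 0.11) and Hist1h2bg (-0.31 ± 0.10), with adjusted p between 0.004 and 0.0456. DESeq2 called 6 of these 9, without Hist1h2ae, Hist1h4j and Hist1h3c. The Hist1h4j call was lost in 15 of 28 alternatives (-0.69 to -0.29 over all 28), among them leaving out 0h clone4_1, clone8_1 or clone8_2, 2h clone4_2, 4h clone8_1 or clone8_2, or rev clone4_1, clone4_2 or clone8_2. The Hist1h3c call was lost in 13 of 28 (-0.64 to -0.19), among them leaving out 0h clone4_1, clone4_2 or clone8_1, 2h clone8_1, 4h clone8_1, or rev clone4_2, clone8_1 or clone8_2. The Hist1h2bn call was lost without 0h clone8_1 or rev clone8_1, and the Hist1h2bg call without 0h clone8_1, 0h clone8_2, rev clone4_1 or rev clone8_1. Values below 0 numbered 29 of 52 in clone 4 (median -0.05) and 40 of 52 in clone 8 (median -0.19). In clone 4 and clone 8 in turn, Hist1h2bm was at -0.12 and -0.86, Hist1h2bg at -0.09 and -0.49, and Hist1h2bn at -0.17 and -0.63, while Hist1h2ah was at -0.68 and -0.51 and Hist1h1d at -0.47 and -0.40. The short RNAs without a poly(A) tail were lower in the same comparison, at 1352 ± 417 CPM at 0h and 980.4 ± 163 in rev (median -0.62, 3 of 10 tested called lower and none higher), and their part in the histone result was not tested. Without 0h clone8_1 or rev clone8_1 the count lower was 4, and the count higher was 2 without 0h clone4_1, rev clone4_1 or rev clone8_1. Of the 10 genes lower at 4h, 5 were also among these 9 (Hist1h2ah, Hist1h2bg, Hist1h2bn, Hist1h3c and Hist1h4i), and both comparisons use the same 0h libraries. All rev libraries lay below all 0h libraries for 7 of the 52 tested histone genes, against 7.19% of all tested genes. Hist1h2ae, an H2A gene, held 10.1, 11.8, 17.7 and 15.8 CPM at 0h and 8.63, 13.5, 7.13 and 11.3 in rev. In clone 4 the groups overlapped and in clone 8 they did not, and the call was lost without 0h clone8_1 (-0.44), 0h clone8_2 (-0.48), rev clone4_1 (-0.48) or rev clone8_1 (-0.32). By library size alone the all-gene median was -0.32 and the histone median -0.47.

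The clones also differed from each other in histone RNA. In the same fit, 16 histone genes were higher in clone 8 than in clone 4 (30.8%) and 2 were lower, against 15.4% and 13.7% of all genes. The median was 0.13 against -0.01 for all genes. The H3 class led by count with 6 of 9 higher (median 0.33), and H4 and H2B had 3 each, H1 and H2A 2 each. The 3 largest differences lay outside the chromosome 13 cluster: Hist4h4, Hist2h4 and Hist2h2ac. With library size alone as the scale, 1 was called higher and the values of Hist1h2bc, Hist1h2bb and Hist1h1a turned to -0.04, -0.05 and -0.02. The all-gene median between clones was not computed on that scale, so a shift common to all genes cannot be told apart. Without the library 4h clone8_1 the count lower was 1.

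Hist4h4, an H4 gene on chromosome 6 (136801553 to 136804415), had the largest clone difference at 0.95 ± 0.10 (adjusted p = 1.16e-09). Its 8 clone 4 libraries ranged from 19.7 to 27.8 CPM with a median of 23.8, and its 8 clone 8 libraries from 32.3 to 61.8 with a median of 45.7. The clones did not overlap for this gene, and it kept its call under every alternative tried for the clone term. Hist2h4, another H4 gene, was higher by 0.71 ± 0.11 (14.4 to 24.7 CPM, median 17.5, against 21.4 to 44.7, median 28.3). The H2A gene Hist2h2ac was higher by 0.67 ± 0.14, and Hist1h3g by 0.58 ± 0.09. Lower in clone 8 were the H2B genes Hist2h2be (-0.65 ± 0.21; 1.52 to 3.51 CPM against 0.902 to 2.20) and Hist1h2bf (-0.53 ± 0.12; 6.25 to 11.5 against 4.51 to 6.96). Both genes went against the other histone genes across libraries, and Hist2h2be was counted only 2 to 30 times per library. The 4 genes higher in rev than at 4h were all among the 16 higher in clone 8. Embryonic stem cell markers summed to 2014 CPM in clone 4 and 2483 in clone 8 at 0h, and their part in the clone difference was not tested.

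**Figure D4:**
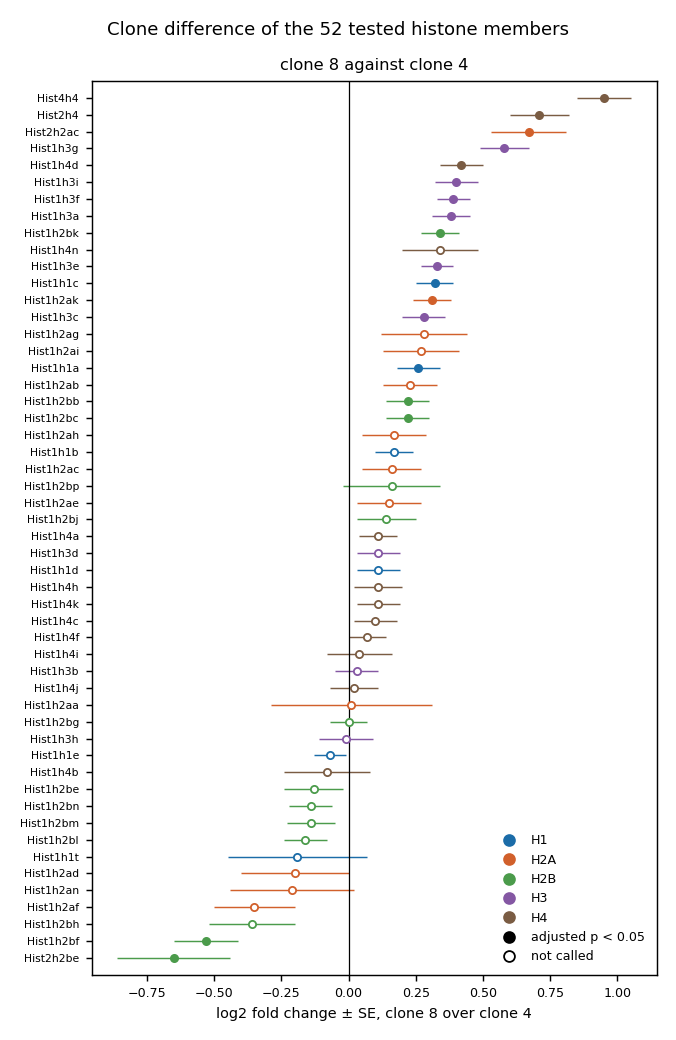
Log2 fold change of clone 8 over clone 4 with its standard error (x axis) for the 52 tested histone genes (y axis, ordered by value), coloured by class; filled points have an adjusted p under 0.05. Hist4h4, Hist2h4 and Hist2h2ac are the highest, 16 filled points lie right of 0 and 2 lie left of it.

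Whether the clones responded differently was tested with an interaction term. No histone gene passed in edgeR in any of the 5 comparisons. Of all genes, 0.0409% and 0.0491% were called higher and lower for 2h against 0h, 0.123% and 0.188% for 4h against 0h, 0.0246% and 0.00819% for 4h against 2h, 0.00819% and 0 for rev against 4h, and 0.0409% and 0.0164% for rev against 0h. The smallest adjusted p were 0.0595 for Hist1h3g at 4h against 0h (clone 8 minus clone 4 response 0.88 ± 0.21) and 0.0765 for Hist1h2bj at 2h against 0h (-1.04 ± 0.24). An unadjusted p under 0.05 was found for 10 genes at 2h against 0h, all with a lower response in clone 8, for 7 at 4h against 0h, for 5 at 4h against 2h, for 5 in rev against 4h and for 9 in rev against 0h. The response was lower in clone 8 for 41 of 52 genes at 2h against 0h (median difference -0.21), for 27 at 4h against 0h (-0.01), for 37 in rev against 4h (-0.15) and for 37 in rev against 0h (-0.16). For 4h against 2h it was higher in clone 8 for 41 of 52 (0.23). Other tools were not run on this term.

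Across the 16 libraries, a histone gene correlated with the mean of the other histone genes at a median Pearson r of 0.558 (log2 CPM), from -0.608 for Hist2h2be to 0.847. Of all genes outside the set, Asns, which encodes asparagine synthetase, had the profile most like the summed histone genes (r = 0.856), followed by Ptgis, prostacyclin synthase (0.855), and Mlh3, a mismatch repair gene (0.847). These 16 points share clones, groups and library scaling, and the values only describe likeness. The summed short RNAs that are not polyadenylated, such as 7SK RNA, were also set against the histone sum: r was 0.61 over all 16 libraries, 0.64 over the 8 of clone 4 and 0.67 over the 8 of clone 8. With the summed DNA replication genes it was 0.35 over all 16, but -0.11 and -0.13 within the clones, and with the share of the 8 most abundant models 0.52, and 0.46 and 0.32 within them. The short RNAs were at 1895 CPM in 0h clone8_1, the highest of the 0h libraries (894 to 1391 in the others), and at 805 CPM in 4h clone4_2, the lowest of the 4h libraries (1355 to 1429 in the others), which are the same libraries that were highest and lowest in histone RNA. The short RNAs and the histone genes had medians below 0 together in 2h against 0h (-0.34 and -0.09), 4h against 0h (-0.22 and -0.17) and rev against 0h (-0.62 and -0.13), comparisons that share the 0h libraries. Between 4h and rev the group means went in opposite directions, from 1253 ± 300.8 to 980.4 ± 163 CPM for the short RNAs and from 1725 ± 268 to 1879 ± 237 CPM for the histone genes. Their part in the histone results was not tested.

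A list of histone variant genes outside the replication-dependent set, called replication-independent here, was described beside them. Of 11 tested, 3 were higher at 4h than at 0h and none lower, where 17.2% of all genes were higher and 16.8% lower: H3f3a (0.39 ± 0.13, adjusted p = 0.0163) and H3f3b (0.29 ± 0.07, adjusted p = 0.0018), which encode H3.3, and H2afz (0.29 ± 0.09, adjusted p = 0.0101), which encodes H2A.Z. H3f3b was at 117 ± 3.36 CPM at 0h and 143 ± 8.64 at 4h. H2afz was at 99.1 ± 21.9 CPM at 0h, 122 ± 38.8 at 4h and 89.6 ± 13.6 in rev, and it was the 1 gene lower in rev than at 4h (-0.43 ± 0.09, adjusted p = 0.000881). H2afz was also lower in clone 8 (-0.52 ± 0.06, adjusted p = 5.79e-08). At 4h, the H3f3a call was lost without 0h clone8_2 and the H2afz call without 4h clone4_1. The difference between the 2 kinds of histone gene was not tested.

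Of 20 genes for transcription, processing and decay of histone RNA, 2 were higher and 2 lower at 4h, both shares under those of all genes. Srrt (0.55 ± 0.07) and Ncbp1 (0.27 ± 0.08), which act with the cap of nascent RNA, were higher with adjusted p of 2.23e-07 and 0.00591. Lower were Lsm10 (-0.62 ± 0.24, adjusted p = 0.0397), a subunit of the U7 complex, and Zfp473 (-0.47 ± 0.17, adjusted p = 0.0299), a zinc finger protein that binds that complex. The Lsm10 call was lost in 12 of 28 alternatives (-0.90 to -0.24 over all 28), among them DESeq2 and leaving out 0h clone4_1, 0h clone4_2, 0h clone8_1, 4h clone4_1 or 4h clone4_2. The Zfp473 call was lost in 11 of 28 (-0.59 to -0.32), among them DESeq2 and leaving out 0h clone4_2, 0h clone8_2, 4h clone4_1, 4h clone8_1 or 4h clone8_2. Slbp was at 39.3 ± 2.74 CPM before induction, 46.7 ± 3.51 after 2h, 44.9 ± 3.32 after 4h, and 40.1 ± 2.97 in rev. It was called higher at 2h (0.22 ± 0.08, adjusted p = 0.0454) and had no call at 4h (0.18 ± 0.08, adjusted p = 0.082). The 2h call was kept in 10 of 28 alternatives (0.15 to 0.31 over all 28): it was lost with DESeq2, with a replicate block, and without any of 9 single libraries (0h clone4_1, clone4_2 or clone8_2, 2h clone4_2 or clone8_1, 4h clone4_2, and rev clone4_1, clone4_2 or clone8_2). Npat was at 57.0 ± 4.37, 65.5 ± 2.16, 63.2 ± 1.21 and 60.0 ± 9.35 CPM in the same order, with no call (0.21 ± 0.08 at 2h, adjusted p = 0.0585). In rev against 4h, 1 of the 20 was lower, Lsm1 (-0.46 ± 0.16), a subunit of the cytoplasmic decay complex, with adjusted p of 0.0362, and none was higher. That call was lost in 8 of 28 alternatives, among them DESeq2 and leaving out 4h clone4_2, 4h clone8_1, rev clone4_1 or rev clone4_2.

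Histone chaperones, which carry histones to and from DNA, had 3 of 16 higher at 4h and none lower, the first near the 17.2% of all genes called higher and the second under the 16.8% called lower. Atrx, which deposits H3.3 with Daxx, was at 228 ± 9.29 CPM before induction, 319.7 ± 19.0 after 2h, 391 ± 10.4 after 4h, and 320.1 ± 32.7 in rev. It rose at 4h by 0.77 ± 0.07 (adjusted p = 1.57e-10) and was lower in rev than at 4h (-0.29 ± 0.07, adjusted p = 0.00418). Npm1 (0.26 ± 0.09, adjusted p = 0.0283) and Nap1l4 (0.24 ± 0.07, adjusted p = 0.0111) were the other two, and the Npm1 call was lost without 0h clone4_1, 0h clone8_2, 4h clone4_1 or 4h clone8_1.

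Genes of DNA replication and the G1/S transition, which are expressed with the replication-dependent histones in cycling cells, had 14 of 42 higher and 3 lower at 4h, where 17.2% of all genes were higher and 16.8% lower. Their median was 0.06 against -0.02 for all genes. Higher were E2f2 (0.51 ± 0.17, adjusted p = 0.0224), a cell cycle transcription factor, Ccne1 (0.40 ± 0.08, adjusted p = 0.000238), which encodes cyclin E1, Pcna (0.36 ± 0.09, adjusted p = 0.00117), the sliding clamp of the replication fork, and 5 of the Mcm helicase genes (0.17 to 0.30). Lower were Tk1, thymidine kinase (-0.52 ± 0.10, adjusted p = 0.000139), and 2 subunits of DNA polymerases, Pola2 (-0.49 ± 0.10, adjusted p = 0.000262) and Pold1 (-0.24 ± 0.08, adjusted p = 0.0213). The E2f2 call was lost with DESeq2 and without 0h clone4_1, 0h clone4_2, 0h clone8_2 or 4h clone8_1. In rev against 4h, where 7.93% of all genes were higher and 8.43% lower, 2 of the 42 were higher, Tk1 (0.32 ± 0.11) and Pole (0.22 ± 0.07). By library size alone Tk1 and Pole were at -0.09 and -0.21, both above the median of all genes under that scaling, -0.41. They lost their calls in 9 and 11 of 28 alternatives. Another 4 of the 42 were lower, among them Ccne2 (-0.50 ± 0.15) and Dut (-0.42 ± 0.09). Genes of G2 and mitosis had 4 of 33 higher and 3 lower at 4h, with Kif23 at 0.35 ± 0.07 and Ube2c at 0.27 ± 0.08 among the higher and Cdc25b at -0.48 ± 0.13 and Cenpf at -0.44 ± 0.07 among the lower. In rev against 4h, with the same shares of all genes, 2 of the 33 were higher, Birc5 (0.29 ± 0.09) and Cenpf (0.26 ± 0.07). By library size alone Birc5 and Cenpf were at -0.13 and -0.17, where the median of all genes was -0.41. Another 3 of the 33 were lower, among them Ccnb2 (-0.33 ± 0.09) and Bub1 (-0.29 ± 0.08). The Birc5 call was lost without 4h clone4_1, 4h clone8_2, rev clone4_1 or rev clone8_1, the Cenpf call without 4h clone8_1 or rev clone8_1, and the Bub1 call without 4h clone4_1. Of the short RNAs without a poly(A) tail, 10 of 19 were tested, and 2 were lower at 4h, Snord17 (-0.89 ± 0.29) and Scarna2 (-0.43 ± 0.13), with none higher. The Snord17 call was lost without 0h clone8_2, 4h clone4_2 or 4h clone8_1. In rev against 4h, 2 of the 10 were lower and 1 higher. Rmrp (-1.02 ± 0.26), the RNA of the RNase MRP enzyme, and Rpph1 (-0.85 ± 0.24), that of RNase P, were lower. Their calls were lost without 4h clone4_1 and, for Rpph1, also without rev clone4_1. Scarna2 was higher (0.42 ± 0.13), though at -0.00 by library size alone, where the median of all genes was -0.41. The Scarna2 call was also lost without 4h clone8_1, 4h clone8_2 or rev clone8_1. In rev against 0h, Rmrp was at -1.11 ± 0.26 and kept its call in 28 of 28 alternatives.

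**Figure D5:**
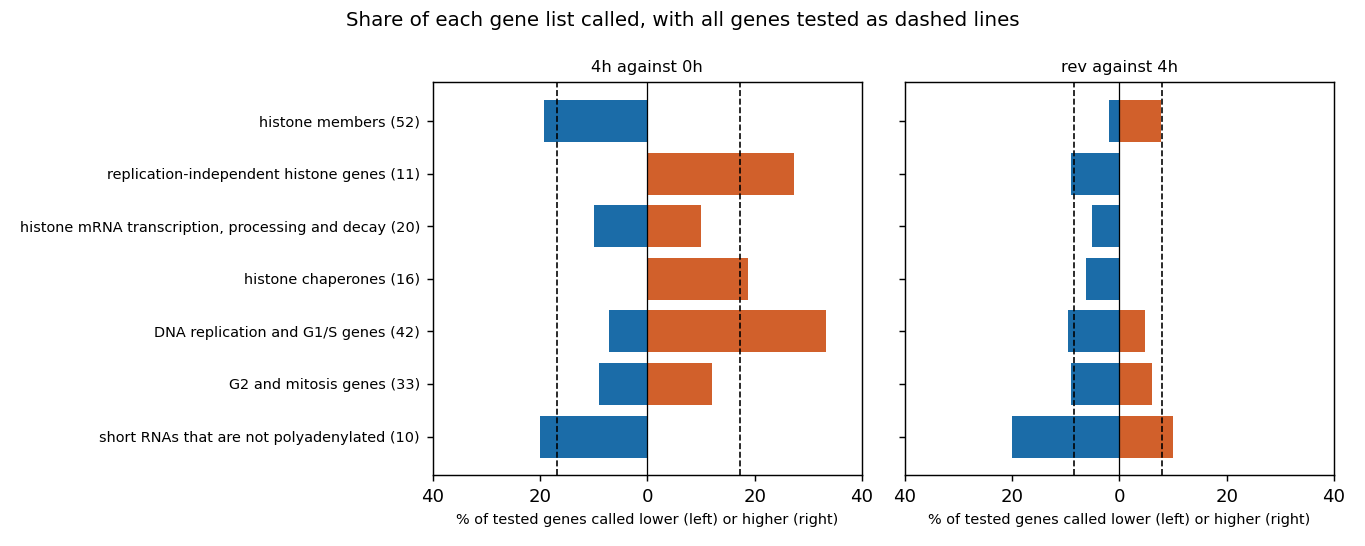
Percent of the tested genes of each list called lower (left of 0) or higher (right of 0), for 4h against 0h and for rev against 4h; numbers of tested genes are in parentheses and the dashed lines mark the percent of all tested genes called. At 4h the histone genes have calls only to the left and the replication-independent histone genes only to the right.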

How the data were processed

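Ribosomal-RNA-depleted total RNA of 16 libraries was measured in 4 groups of 4. The authors deposited unnormalized counts of reads for each gene, and column totals differ between libraries. Per the submitters' processing notes, the authors used bcl2fastq 2.19.1, STAR 2.5.3a and the build mm10; the counting tool, the annotation, the strand setting and the treatment of reads with several positions are not given in the sources used here. Of 52636 identifiers, 52489 were matched to GENCODE M21.

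The genes, gene lists and tests were chosen with earlier results of these data known. Counts were filtered with filterByExpr (12215 genes left), scaled by trimmed mean of M-values and fitted in R 4.3.3 with edgeR 4.0.16 (limma 3.58.1), group and clone as terms, with two-sided contrasts and Benjamini-Hochberg adjustment at 0.05. Each standard error was the absolute log2 fold change divided by the square root of F. An 8-cell model gave the clone interactions. The procedure was also run on counts simulated with the fit's own spread. These held no clone difference and no deviation of whole libraries, so they cannot show how such effects move the calls. Alternatives were other scalings and filters, other covariates, DESeq2 1.42.0, each clone alone and leaving out each library; those for the clone difference were added after seeing the data.

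Named genes were, by rule, the 2 genes of each class with the highest level per kilobase, up to 3 called genes per direction and comparison with the largest change, up to 2 called genes per direction of each list, and those with the most and least similar profile. Other genes are named where a count covers them, chosen after their values were seen. Floors cover counting error only, and no molecular identifiers are in the table.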

Additional observations from a re-analysis of the deposited data

Results flagged for a closer look

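In 15 of 236 groups of 4 libraries, 1 library lay far from the other 3 by Dixon's test; chance gives about 1 in 20 groups. Several of them concern the same libraries. In 4h clone4_2, summed H1 was 471 CPM (619 to 634 in the others), Hist1h1a was 138 (196 to 202), Hist1h1b 76.2 (111 to 114), Hist1h1d 68.6 (88.1 to 90.4) and the H2A gene Hist1h2ae 8.41 (12.4 to 12.9). In 0h clone8_1, summed H1 was 887 CPM (653 to 671 in the others) and Hist1h1a 276 (190 to 196). In rev clone8_2, Hist1h1d was 94.7 CPM (65.5 to 70.4) and Hist1h2bb 60.4 (38.1 to 41.5).

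At 2h, summed H2A was 92.0 CPM in clone4_2 (103 to 104 in the others), Hist2h2be was 3.50 in the same library (2.13 to 2.33), and Hist1h1c was 166 in clone8_1 (143 to 144). The Hist2h2be value is 8 counts, in a library where 3 counts equal 1.314 CPM. Outside the histone genes, Cdc25b was 14.6 CPM in 4h clone8_1 (10.2 to 10.4), Bub1 87.4 in 4h clone4_1 (73.3 to 75.3), and Asns 353 in 2h clone4_1 (384 to 389).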

How the results depend on the processing

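Counts of called histone genes moved with the processing, and the cause was not tested. With library size alone, the counts were 0 lower at 2h (3 in the edgeR fit as reported), 0 lower at 4h (10), 0 higher and 3 lower in rev against 4h (4 and 1), 0 higher in rev against 0h (1) and 1 higher in clone 8 (16). The values that turned in sign under it were, for rev against 4h, Hist1h3g -0.01, Hist1h4d -0.11, Hist1h1c -0.18, Hist1h3a -0.08, Tk1 -0.09, Pole -0.21, Cenpf -0.17, Birc5 -0.13 and Scarna2 -0.00, and, between clones, Hist1h2bc -0.04, Hist1h2bb -0.05 and Hist1h1a -0.02. For rev against 4h this scaling moved the median of all genes from 0.01 to -0.41, and each value listed lay above -0.41. The histone median moved from 0.08 to -0.36, so its distance from the all-gene median changed little (0.06 and 0.04). These sign changes are therefore not specific to the genes listed. Between clones the all-gene median was not computed on that scale. Without the clone covariate, the counts were 0 lower at 2h, 5 lower at 4h, 0 and 0 in rev against 4h, and 0 higher and 3 lower in rev against 0h. DESeq2 gave 0 lower at 2h, 5 lower at 4h, 0 and 0 in rev against 4h, and 1 higher and 6 lower in rev against 0h (1 and 9). With the share of the 8 most abundant models as a covariate, 1 was higher at 2h, 1 higher at 4h, and 0 and 0 were called in rev against 4h. At an adjusted p under 0.01, 0 were lower at 2h, 4 lower at 4h, 0 and 0 called in rev against 4h, and 3 lower in rev against 0h. Clone 4 alone gave 0 lower at 2h, 5 lower at 4h, 1 lower from 2h to 4h, 0 lower in rev against 4h, and 0 higher and 1 lower in rev against 0h. Clone 8 alone gave 1 higher and 9 lower at 2h, 1 higher and 6 lower at 4h, 0 and 0 in rev against 4h, and 2 higher in rev against 0h. Without a low-count filter, and with only the 2 groups compared, 1 was higher at 2h and 2 lower in rev against 4h.

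Leaving out each library in turn gave 0 to 1 higher and 0 to 7 lower at 2h, 0 higher and 4 to 14 lower at 4h, 0 and 0 from 2h to 4h, 0 to 5 higher and 0 to 2 lower in rev against 4h, 1 to 2 higher and 4 to 12 lower in rev against 0h, and 14 to 19 higher and 1 to 3 lower in clone 8. All 28 calls of histone genes between groups held with relative log expression scaling, without the 8 most abundant models and with a mean of at least 1 CPM. They also held with a replicate block, under which, of the 59 calls of genes that the naming rule picked from the other lists, 1 was lost, that of Slbp at 2h (0.22). The remaining calls in those lists were not run under the alternatives. The replicate numbers did not pair the libraries: over 12 pairs, deviations correlated at a mean of 0.007 (-0.264 to 0.170), and in 3 of 48 comparisons a library correlated best with its own number. Depth after scaling limits the rarest genes: 3 counts equal 1.314 CPM in the library with fewest counts, 2h clone4_2, and 1.352 CPM in rev clone8_2, which has the lowest scaling factor.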

Other observations

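The histone genes were also described by how far the annotated transcript runs past the stem-loop. At 4h against 0h, the median was -0.17 for the 19 genes with more than 100 bases after the stem-loop, -0.19 for the 18 with at most 100, and -0.18 for the 15 tested of 16 without a stem-loop in the annotation. In rev against 4h the medians were 0.10, -0.01 and 0.08 in that order. The 22 genes with at least 50% of their 50-base words shared with other genes had a median of -0.17 at 4h, with 4 lower, and the 30 tested of the 31 others -0.18, with 6 lower. Both splits were chosen after the values were seen and were not tested.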
